A study of Cavia porcellus with 35 samples.

Results

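The genes described here are 55 symbols of the Wnt system, listed by name, with earlier results of these data known when the list was chosen. The list holds 16 Wnt ligands, 10 frizzled receptors, 2 LRP co-receptors, 3 kinase-like receptors, 6 R-spondins and their LGR receptors, 7 secreted inhibitors that bind Wnt, 4 Dickkopf and Kremen genes, 3 membrane inhibitors or regulators of receptor turnover, 2 genes of ligand acylation and secretion, and 2 Axins. All 55 symbols are names of guinea pig genes in RefSeq (assembly mCavPor4.1), and 51 of them were among the 12100 symbols in at least 1 of the count tables.

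The animals were juvenile guinea pigs (Cavia porcellus, strain not given in the sources used here), killed on postnatal day 40. mRNA was sequenced from micropunches of the medial prefrontal cortex (mPFC). Pregnant females had received repeated courses of the synthetic glucocorticoid (sGC) betamethasone ("Beta" in the labels) or saline (Control) late in gestation. First generation (F1) sGC animals were the offspring of those pregnancies, while F2 and F3 sGC animals descended from them through males bred to females outside the experiment and received no drug themselves. The groups were 4 control and 4 sGC females in each of F1, F2 and F3, and 5 control and 6 sGC F1 males, 35 animals in all.

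Wnt ligands are lipid-modified secreted proteins. Porcupine (PORCN) adds the lipid, Wntless (WLS) carries the ligand to the cell surface, and the ligand then binds a frizzled receptor together with LRP5 or LRP6. Receptor engagement disables a destruction complex built on Axin, so that beta-catenin accumulates and enters the nucleus, while other branches act through ROR and RYK receptors and the planar polarity proteins. R-spondins keep frizzled receptors on the membrane by removing the ubiquitin ligases ZNRF3 and RNF43, and secreted frizzled-related proteins, WIF1, NOTUM and Dickkopfs hold the signal down. In the postnatal brain the system is known for roles in synapse assembly, dendrite growth, oligodendrocyte maturation and the blood-brain barrier.

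Female libraries held 12819964 to 19551079 assigned reads and male libraries 25697953 to 31763585. Markers of cortical excitatory neurons were present in every library, with a summed level of 1743 to 6429 CPM (read counts scaled to a common library size), whereas markers of the paraventricular nucleus, which the extraction text of the labels names as the punched region, summed to only 6.58 to 19.3 CPM. In F1 females, control animals 1 and 4 stood apart by their striatal medium spiny neuron markers (9 of 12 listed in the table), which summed to 2796 and 2642 CPM against 639 and 980 in the other controls and 296 to 688 in the sGC animals. Results in F1 females are therefore also given without both controls. The males carried another series of library names than the females and were sequenced more deeply, so sex and sequencing series cannot be told apart. In bulk tissue, fewer cells of a type and less RNA per cell cannot be told apart either.

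The genes FZD8, FZD10, DKK1 and LGR5 were in none of the 4 tables. WNT1 was listed only for F1 males and WNT2B only for F3 females, both below the count filter, which asked for about 10 reads in as many animals as the smaller group holds. WNT3 was not listed in F3 females, and RSPO1 was not listed in F2 females, and these genes and RNF43 were below the filter in some of the other tables. This left 49 genes tested in at least 1 table, 46 of them in all 4. Differences are log2 fold changes of sGC against control from edgeR's quasi-likelihood test, and a gene is called at a false discovery rate (FDR, Benjamini-Hochberg over every gene of the table) below 0.05.

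**Figure D1:**
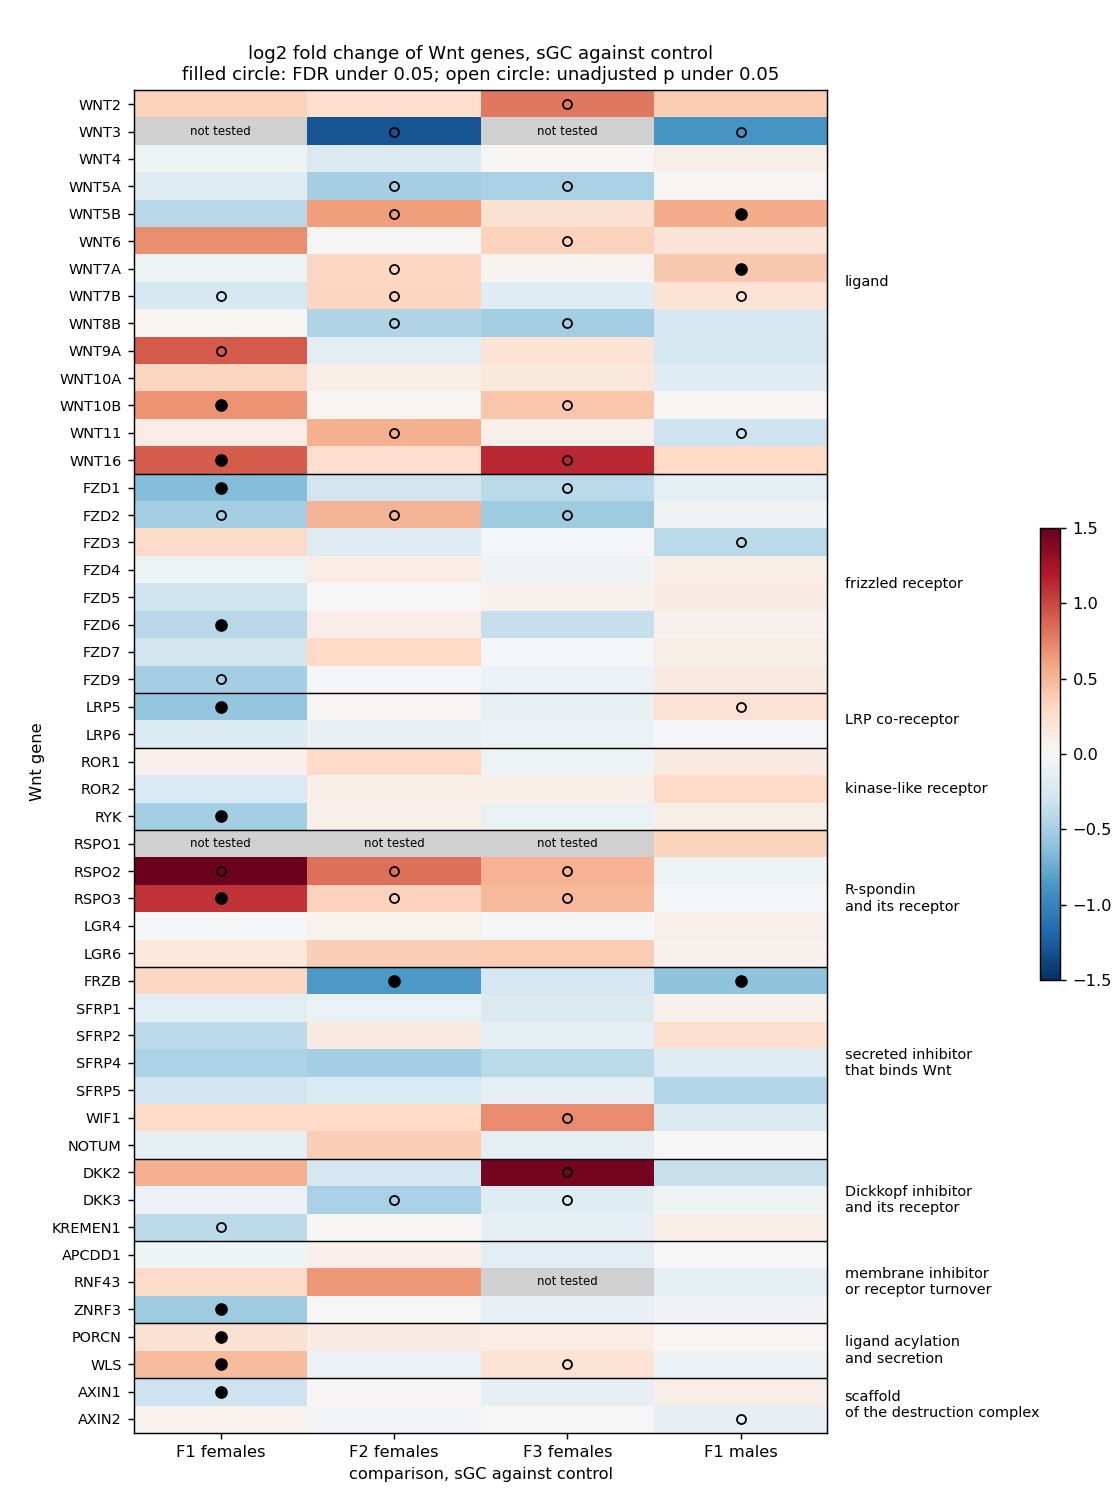
Colour gives the log2 fold change of sGC against control for each of the 49 tested Wnt genes (rows, by role) in each of the 4 comparisons (columns). Filled circles mark FDR under 0.05 and open circles unadjusted p under 0.05. Of the filled circles, 11 lie in F1 females, 1 in F2 females, 0 in F3 females and 3 in F1 males.

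In F1 females, 11 Wnt genes were called, 5 higher and 6 lower. Both genes of ligand secretion, 2 ligands and 1 R-spondin rose, and 2 frizzleds, the co-receptor LRP5, the receptor RYK, the ligase ZNRF3 and the scaffold AXIN1 fell. These 11 were called among 47 tested Wnt genes (23.4%), against 16.5% of all genes tested in the same animals. The 5 of 47 that rose compare with 9.21% of all genes and the 6 of 47 that fell with 7.33%. At an unadjusted p under 0.05 there were 17 (36.2%), beside 34.2%, a share near that of all genes. The median log2 fold change of the Wnt genes was -0.08, beside -0.03 over all genes.

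Among the ligands, WNT10B, an activator of beta-catenin signalling, rose. Its level was 3.62, 3.32, 2.94 and 3.22 CPM (after TMM scaling) in the 4 controls and 4.56, 5.31, 4.71 and 6.37 CPM in the 4 sGC animals. Every sGC animal was above every control, with a log2 fold change of 0.67 ± 0.15 (SE, n = 4 and 4, edgeR FDR 0.023). WNT16, another Wnt ligand, was at 1.46, 1.73, 1.27 and 1.18 CPM in controls and 3.12, 2.14, 2.42 and 2.94 CPM in sGC animals. Again the groups did not overlap, and the log2 fold change was 0.91 ± 0.20 (edgeR FDR 0.0212), although it rests on 18 to 48 reads per library. WNT9A had a log2 fold change of the same size, 0.92 ± 0.33, but was not called (edgeR FDR 0.0885). Its sGC animal 3, at 2.91 CPM, lay below all controls (3.21 to 4.43 CPM) while the others lay at 7.03, 10.1 and 9.03 CPM. Of the 13 ligands tested, 2 rose, 0 fell and 11 were not called, so 15.4% were called beside 16.5% of all genes.

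RSPO3, the R-spondin that potentiates Wnt reception, rose. It measured 13.4, 11.1, 8.29 and 8.81 CPM in controls and 25.4, 13.9, 19.9 and 29.0 CPM in sGC animals. The groups did not overlap, but sGC animal 2 lay close to control 1, and the log2 fold change was 1.08 ± 0.24 (edgeR FDR 0.0202). Its relative RSPO2 had the greatest log2 fold change of all Wnt genes tested in F1 females, 1.47 ± 0.45, and was not called (edgeR FDR 0.0555). RSPO2 was at 8.11, 13.6, 6.48 and 5.39 CPM in controls and 24.5, 34.9, 7.13 and 26.6 CPM in sGC animals. A single sGC animal, number 3, lay within the control range. RSPO2 was called without that animal (edgeR FDR 0.0119) and without control 2 (edgeR FDR 0.0462). Animal 3 was also the one that lay low for WNT9A. The receptors LGR4 and LGR6 had log2 fold changes of -0.03 and 0.15 and were not called.

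PORCN and WLS both rose. PORCN was at 46.5, 43.8, 46.4 and 49.5 CPM in controls and 55.8, 51, 56.1 and 56.1 CPM in sGC animals. The difference was small and without overlap, at a log2 fold change of 0.23 ± 0.06 (edgeR FDR 0.0312). WLS was at 198, 156, 148 and 151 CPM in controls and 226, 253, 192 and 237 CPM in sGC animals. Here control 1 lay above sGC animal 3, and the log2 fold change was 0.48 ± 0.11 (edgeR FDR 0.0255).

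Among the co-receptors and kinase-like receptors, LRP5 and RYK fell. LRP5, the co-receptor of the beta-catenin branch, was at 26.4, 30.0, 27.0 and 23.3 CPM in controls and 17.6, 18.3, 18.9 and 16.6 CPM in sGC animals. The highest sGC animal lay well below the lowest control, and the log2 fold change of -0.58 ± 0.09 had the lowest FDR of any Wnt gene in F1 females (edgeR FDR 0.0059). Its paralog LRP6 was not called, at -0.20 ± 0.11 (edgeR FDR 0.23). RYK, a kinase-like Wnt receptor with roles in axon guidance, was at 20.9, 26.9, 21.3 and 19.5 CPM in controls and 15.4, 16.4, 13.4 and 17.1 CPM in sGC animals. RYK did not overlap between groups, with a log2 fold change of -0.51 ± 0.12 (edgeR FDR 0.0242), while ROR1 and ROR2 were not called.

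Of the 8 frizzled receptors tested, 7 had negative log2 fold changes, beside 54.5% of all genes, and 2 were called (25%, beside 16.5%). FZD1 was at 38.9, 20.0, 23.0 and 28.4 CPM in controls and 16.4, 18.3, 16.5 and 19.3 CPM in sGC animals. The sGC animals were tightly grouped below controls that were spread out, and the log2 fold change was -0.65 ± 0.19 (edgeR FDR 0.0484). FZD6 was at 15.7, 13.6, 12.9 and 12.6 CPM in controls and 11.3, 8.96, 10.6 and 10.4 CPM in sGC animals, again without overlap, with a log2 fold change of -0.41 ± 0.11 (edgeR FDR 0.0341). FZD2 and FZD9 had log2 fold changes of -0.51 each and were not called (edgeR FDR 0.143 and 0.07). FZD3 alone had a positive log2 fold change, 0.29 ± 0.14 (edgeR FDR 0.175).

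Among the regulators inside and at the membrane, ZNRF3, the ubiquitin ligase that clears frizzled receptors, was at 12.9, 14.5, 13.7 and 12 CPM in controls and 9.89, 10.3, 8.38 and 7.98 CPM in sGC animals. The log2 fold change was -0.54 ± 0.11 and the groups were apart (edgeR FDR 0.0179). AXIN1, the scaffold of the destruction complex, was at 36.7, 37.4, 36.8 and 38.5 CPM in controls and 28.4, 30.7, 28.9 and 31.9 CPM in sGC animals. AXIN1 varied little within groups, which lay apart, with a log2 fold change of -0.32 ± 0.06 (edgeR FDR 0.0114). AXIN2, the beta-catenin target that shares its function, was not called, at 0.06 ± 0.07 (edgeR FDR 0.6). KREMEN1, a receptor for Dickkopfs, fell short of a call at -0.40 ± 0.12 (edgeR FDR 0.059), with all sGC animals (39.1 to 44.2 CPM) below all controls (45.1 to 69.2 CPM). None of the 7 secreted inhibitors was called, beside 16.5% of all genes, with log2 fold changes from -0.47 to 0.31. In all, 12 of the 47 genes tested did not overlap between groups, beside 23.2% of all genes.

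**Figure D2:**
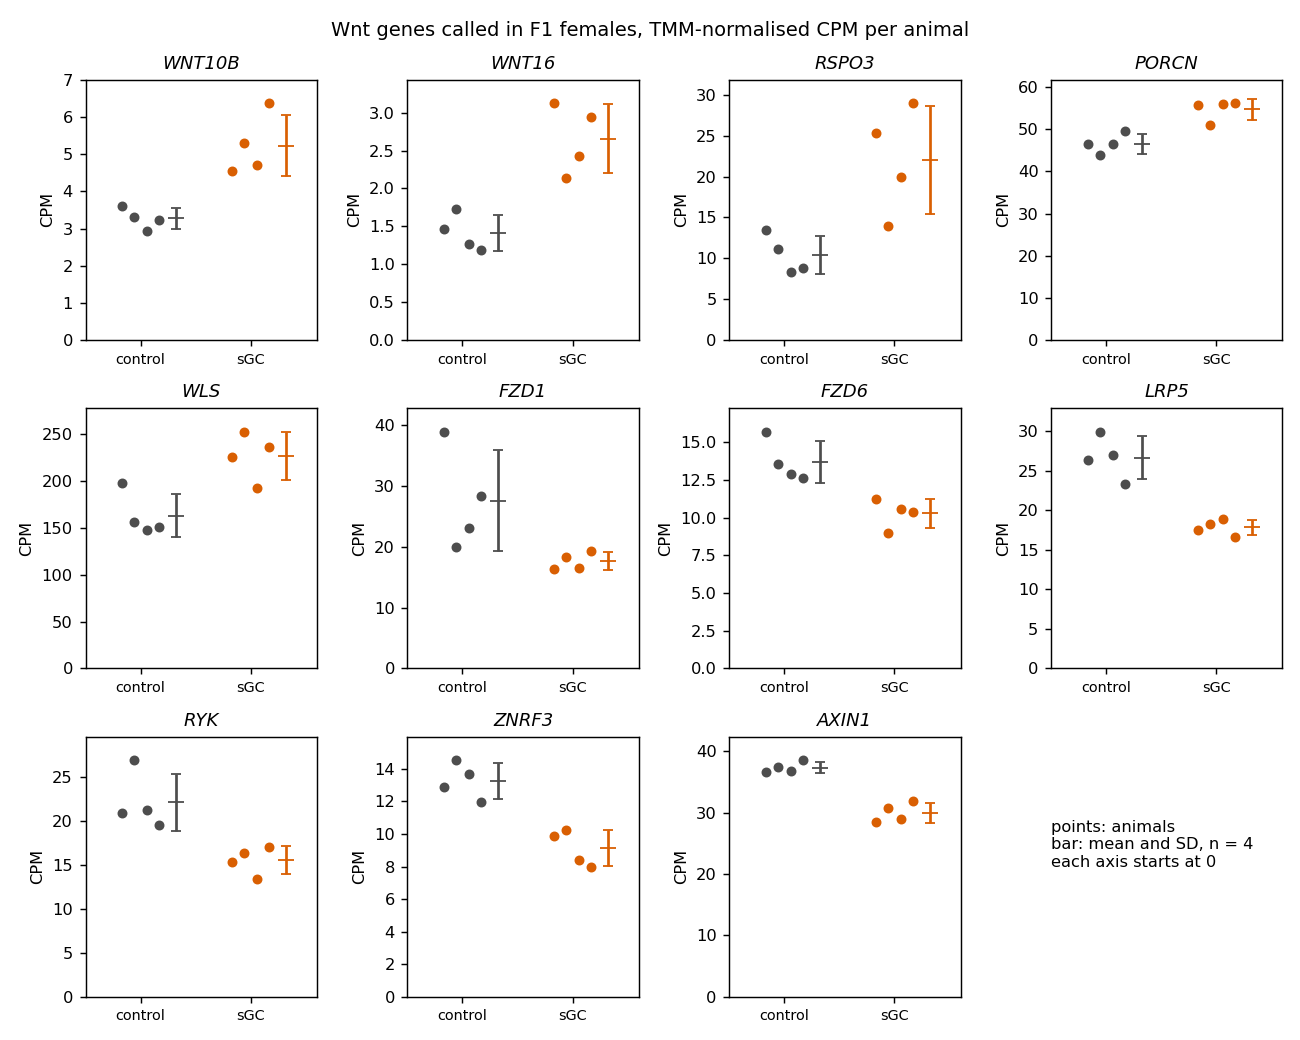
TMM-normalised CPM of each of the 11 Wnt genes called in F1 females, 1 point per animal, with the group mean and SD (n = 4 control, n = 4 sGC) and each axis starting at 0. The 5 genes that rose are shown first and the 6 that fell after them, and the groups overlap only for WLS.

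These calls differed in how far they rested on single animals. LRP5 and AXIN1 were called in all 8 fits that left out 1 animal, and ZNRF3 in 7, missing only without control 3 (edgeR FDR 0.0639). WNT10B, RYK and RSPO3 were called in 5 of 8, WNT16 in 4, PORCN in 3, WLS in 2, FZD1 in 1 and FZD6 in 0. The count of called Wnt genes fell from 11 to 2 without control 3, to 4 without sGC animal 1, and to 5 without control 4 or without sGC animal 4. The share of all genes called in these fits is not given here, so the counts cannot be read as particular to Wnt genes. None of the 11 log2 fold changes turned sign in these fits. Without both controls of high striatal marker level, 6 of the 11 calls held (LRP5, RYK, RSPO3, ZNRF3, PORCN and WLS) and 5 did not (WNT10B, WNT16, FZD1, FZD6 and AXIN1). The log2 fold change of FZD1 was then -0.26 and not -0.65, whereas that of LRP5 was -0.65 and that of WLS 0.60. WNT5B was called only there, at -0.68 (edgeR FDR 0.0447).

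FZD1 followed the striatal markers across the F1 female controls but not across the sGC animals. The controls with marker sums of 2796, 2642, 980 and 639 CPM had FZD1 at 38.9, 28.4, 23.0 and 20.0 CPM, in the same order. KREMEN1 showed that order too, at 69.2, 56.4, 49.8 and 45.1 CPM. LRP5 did not, at 26.4, 23.3, 27.0 and 30.0 CPM in the same animals. In sGC animals 1 to 4, striatal sums of 335, 296, 393 and 688 CPM went with FZD1 at 16.4, 18.3, 16.5 and 19.3 CPM. Each such pair of gene and marker list is 1 of many possible. All 9 striatal markers listed had negative log2 fold changes (median -2.30, 8 with an unadjusted p under 0.05, 5 called). Microglial markers (6 of 8 listed) were also lower in every sGC animal (175 to 197 CPM) than in every control (235 to 284 CPM). Cortical excitatory neuron markers (6 of 7 listed) were at 1743 to 3079 CPM in controls and 3072 to 6429 CPM in sGC animals, with a median log2 fold change of 1.96. All 6 were positive with an unadjusted p under 0.05 and 0 were called. All 8 mature oligodendrocyte markers and all 6 precursor markers listed had negative log2 fold changes (medians -0.72 and -0.60, 0 called). The part of any of these cells in these differences was not tested. The fits without both controls do not test it, since the remaining controls, at 639 and 980 CPM, had striatal sums above the sGC mean of 428 CPM.

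**Figure D3:**
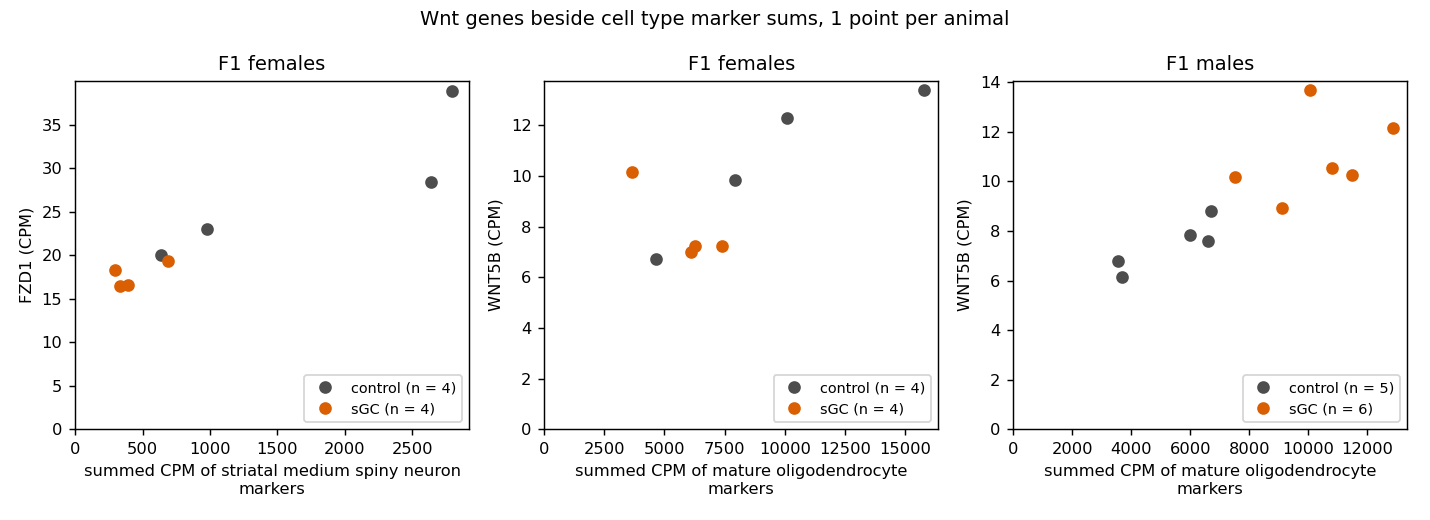
Level of a Wnt gene in CPM (vertical axis) against the summed CPM of a marker list (horizontal axis), 1 point per animal. In F1 females, controls with more striatal marker signal had more FZD1, an order that the sGC animals did not show (left). F1 female controls with more oligodendrocyte marker signal had more WNT5B, whereas the sGC animal with the lowest marker signal had the most WNT5B of its group (middle). In F1 males, all 6 sGC animals had more oligodendrocyte marker signal and more WNT5B than all 5 controls (right).

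In F1 males, the changes lay in the ligands WNT5B and WNT7A, which rose, and in the inhibitor FRZB, which fell. These 3 genes were called among 49 Wnt genes tested (6.12%), beside 9.22% of all genes, of which 5.74% rose and 3.48% fell. At an unadjusted p under 0.05 there were 9 (18.4%), beside 25.2%. The median log2 fold change of the Wnt genes was 0.01, beside a value close to 0 over all genes (-7.26e-05). None of the 11 genes called in F1 females was called in F1 males. With only 3 called in males this says little, and the share of all genes called in both was not counted.

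WNT5B, a ligand of the branch that does not use beta-catenin, was at 7.60, 7.84, 6.78, 6.15 and 8.80 CPM in the 5 male controls. In the 6 sGC males it ran from 8.94 to 13.7 CPM with a median of 10.4 CPM. All sGC males were above all controls, with a log2 fold change of 0.56 ± 0.12 (n = 5 and 6, edgeR FDR 0.012). WNT7A, a ligand known from synapse assembly and from signalling to brain endothelium, was at 15, 15.8, 15.2, 13.8 and 15.6 CPM in controls. In sGC males it ran from 17.1 to 24.2 CPM with a median of 19.4 CPM. WNT7A was thus also without overlap, with a log2 fold change of 0.41 ± 0.09 (edgeR FDR 0.0134). Both ligands were called in all 11 fits that left out 1 male.

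FRZB, a secreted frizzled-related protein that binds Wnt outside the cell, was at 9.16, 13.1, 19.6, 17.4 and 15.1 CPM in male controls. In sGC males it ran from 9.20 to 11.2 CPM with a median of 9.44 CPM. Control 1 lay below every sGC male and the other 4 controls above them, and the log2 fold change was -0.60 ± 0.15 (edgeR FDR 0.0258). FRZB was called in 6 of 11 fits with 1 male left out, with log2 fold changes from -0.73 to -0.48, and was not called without control 3, control 4, or sGC animals 1, 3 or 4 (edgeR FDR up to 0.0703). WNT3 was spread widely among male controls, at 0.585, 2.50, 3.64, 2.0 and 0.997 CPM, against 0.780 to 1.75 CPM with a median of 0.880 CPM in sGC males. The groups overlapped and WNT3 was not called, at -0.88 ± 0.39 (edgeR FDR 0.176). FZD3, a frizzled known from axon guidance, was at 36.8, 38.2, 44.7, 32.2 and 28.3 CPM in controls and ran from 20.9 to 39.4 CPM with a median of 25.8 CPM in sGC males, with overlap (-0.40 ± 0.15, edgeR FDR 0.113). WNT11 and WNT7B were not called either, at -0.31 ± 0.10 (edgeR FDR 0.0775) and 0.21 ± 0.09 (edgeR FDR 0.145). Besides WNT5B and WNT7A, only AXIN2 did not overlap between groups, at -0.12 ± 0.04 (edgeR FDR 0.104), so 3 of 49 were without overlap beside 6.26% of all genes.

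Markers of mature oligodendrocytes (8 of 10 listed, MBP and MOBP absent) rose in the same males, all 8 being called. Their sum was 7523 to 12883 CPM in sGC males and 3533 to 6708 CPM in controls. Precursor markers (6 of 7 listed) were likewise higher in all sGC males, at 601 to 772 CPM against 435 to 561 CPM. In F1 females the control order of mature oligodendrocyte markers, 15769, 10095, 7916 and 4650 CPM in controls 2, 3, 4 and 1, was also the order of WNT5B (13.4, 12.3, 9.86 and 6.71 CPM) and of WNT7A (23.6, 18.3, 15.8 and 13.5 CPM). The F1 sGC females did not show that order, since animal 3 had the lowest oligodendrocyte sum (3659 CPM against 6098 to 7397 CPM) and the highest WNT5B (10.2 CPM against 7.0 to 7.23 CPM). Upper cortical layer markers (7 of 7 listed) moved with FRZB among the male controls. Their sums of 1574, 1266, 1143, 1040.4 and 952 CPM in controls 3, 4, 5, 2 and 1 followed the order of FRZB, at 19.6, 17.4, 15.1, 13.1 and 9.16 CPM. The sGC males had sums of 899.5 to 1003 CPM, without the order of their FRZB levels, and 6 of the 7 markers had negative log2 fold changes (median -0.38, 1 called). Each of these matches of order is again 1 of many possible pairs of gene and marker list. The part of these cells in the differences of WNT5B, WNT7A and FRZB was not tested.

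In F2 females, FRZB fell and no other Wnt gene was called, 1 of 48 tested (2.08%) beside 0.278% of all genes (0.153% higher and 0.126% lower). FRZB was at 15.2, 14.8, 17.7 and 16.2 CPM in controls and 8.24, 10.8, 7.71 and 8.45 CPM in sGC animals. The groups were far apart, and the log2 fold change was -0.86 ± 0.12 (n = 4 and 4, edgeR FDR 0.0334). Its size held when 1 animal was left out, from -0.98 to -0.81, but the FDR ran from 0.00369 to 0.139 and passed in only 2 of 8 fits, those without control 1 or without sGC animal 2.

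Below the threshold, 12 of the 48 genes in F2 females (25.0%) had an unadjusted p under 0.05, beside 16.1% of all genes. The median log2 fold change of the Wnt genes was 0.04, beside 0.01 over all genes. The ligand WNT3 was at 2.49, 3.23, 4.31 and 3.23 CPM in controls and 0.765, 2.23, 1.04 and 1.43 CPM in sGC animals. Its groups did not overlap, but it rests on 13 to 55 reads per library and was not called, at -1.30 ± 0.30 (edgeR FDR 0.071). FRZB and WNT3 were the only 2 of 48 without overlap, beside 8.09% of all genes. RSPO2 was at 9.83, 15.3, 9.39 and 12.7 CPM in controls and 27.8, 15.2, 21.9 and 18.6 CPM in sGC animals, where only sGC animal 2 fell within the controls (log2 fold change 0.83 ± 0.20, edgeR FDR 0.0753). WNT5B was at 8.12, 6.31, 6.18 and 6.02 CPM in controls and 11.2, 7.76, 12.4 and 9.58 CPM in sGC animals, with sGC animal 2 again the low one (0.62 ± 0.16, edgeR FDR 0.0968). DKK3, a divergent Dickkopf, was at -0.48 ± 0.15 (edgeR FDR 0.152), WNT8B at -0.45 ± 0.14 (edgeR FDR 0.137) and WNT7A at 0.31 ± 0.10 (edgeR FDR 0.169). Without sGC animal 2, the count of called Wnt genes in F2 females was 5 and not 1, adding WNT3, WNT5B, RSPO2 and DKK3. The share of all genes called in that fit is not given here. Animal 2 also had the lowest mature oligodendrocyte sum of the sGC animals, 4822 CPM against 7356 to 11353 CPM in the others. Controls had 3251 to 5041 CPM. Oligodendrocyte precursor sums were higher in all F2 sGC animals (756 to 1016 CPM) than in all controls (622 to 750.3 CPM), and upper cortical layer sums lower in all of them (774 to 1041 CPM against 1120 to 1409 CPM). Among F2 controls 3, 4, 1 and 2, upper layer sums of 1409, 1230, 1205 and 1120 CPM again followed the order of FRZB. The F2 sGC animals did not show that order, and the match is 1 of many possible. All 6 deep cortical layer markers listed had positive log2 fold changes (median 0.51, 4 with an unadjusted p under 0.05, 0 called). All 6 meningeal fibroblast markers listed had negative ones (median -0.59, 4 with an unadjusted p under 0.05, 0 called). The part of these cells in the F2 values was not tested.

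In F3 females, 0 of 46 Wnt genes tested were called by edgeR's quasi-likelihood test, beside 1.34% of all genes, and 14 (30.4%) had an unadjusted p under 0.05, beside 17.3%. The median log2 fold change of the Wnt genes was -0.04, beside -0.01 over all genes. With the same counts, edgeR's likelihood ratio test called 4 (WNT2, WNT16, FZD1 and DKK2) and DESeq2 called 3 (WNT2, FZD1 and DKK2). The share of all genes that these other tests called is not given here. WNT2 and DKK2 are named here after their values were seen. WNT2, a ligand of the beta-catenin branch, was at 5.24, 3.46, 4.98 and 3.31 CPM in controls and 6.27, 8.01, 7.90 and 7.17 CPM in sGC animals, without overlap (0.79 ± 0.17, edgeR quasi-likelihood FDR 0.0616). FZD1 was at 19.6, 26.2, 28.0 and 23.9 CPM in controls and 18.4, 19.2, 17 and 19.3 CPM in sGC animals. It too was without overlap, at -0.40 ± 0.11 (edgeR FDR 0.0988). FZD2 was the last of the 3 genes without overlap, which compares with 10.3% of all genes. It was at 3.11, 3.59, 3.82 and 3.37 CPM in controls and 3.10, 2.39, 2.01 and 1.98 CPM in sGC animals (-0.54 ± 0.18, edgeR FDR 0.156), where sGC animal 1 lay just under the lowest control. DKK2, a secreted Dickkopf, had the greatest log2 fold change, 1.43 ± 0.39 (edgeR FDR 0.104), on 6 to 53 reads per library and levels of 0.864, 0.798, 1.77 and 0.381 CPM in controls and 2.58, 2.39, 3.67 and 1.61 CPM in sGC animals. WNT16 was at 0.576, 0.532, 1.02 and 0.508 CPM in controls and 0.937, 1.70, 1.18 and 1.98 CPM in sGC animals, with sGC animal 1 below control 3 (1.13 ± 0.32, edgeR FDR 0.115). WNT10B, which rose in F1 females, was at 8.81, 6.79, 5.53 and 7.31 CPM in controls and 10.2, 9.92, 10.4 and 7.61 CPM in sGC animals, where only sGC animal 4 overlapped (0.42 ± 0.16, edgeR FDR 0.209). Without control 1, 4 genes were called in F3 females (WNT5A and FZD1 lower, WNT2 and RSPO2 higher), and without any other single animal 0 were. The share of all genes called without control 1 is not given here either. Cortical excitatory neuron markers (6 of 7 listed) summed to more in every F3 sGC animal (2478 to 2740.2 CPM) than in every control (1977 to 2041 CPM). All 9 striatal markers listed in F3 females had negative log2 fold changes (median -0.74, 6 with an unadjusted p under 0.05, 0 called). F3 controls 3, 2, 4 and 1 had striatal sums of 1073, 699, 554 and 370 CPM. Their FZD1 was at 28.0, 26.2, 23.9 and 19.6 CPM, in falling order as in the F1 female controls, which is 1 of many possible matches. The F3 sGC animals had striatal sums of 244 to 515 CPM. The part of these cells in the F3 values was not tested.

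**Figure D4:**
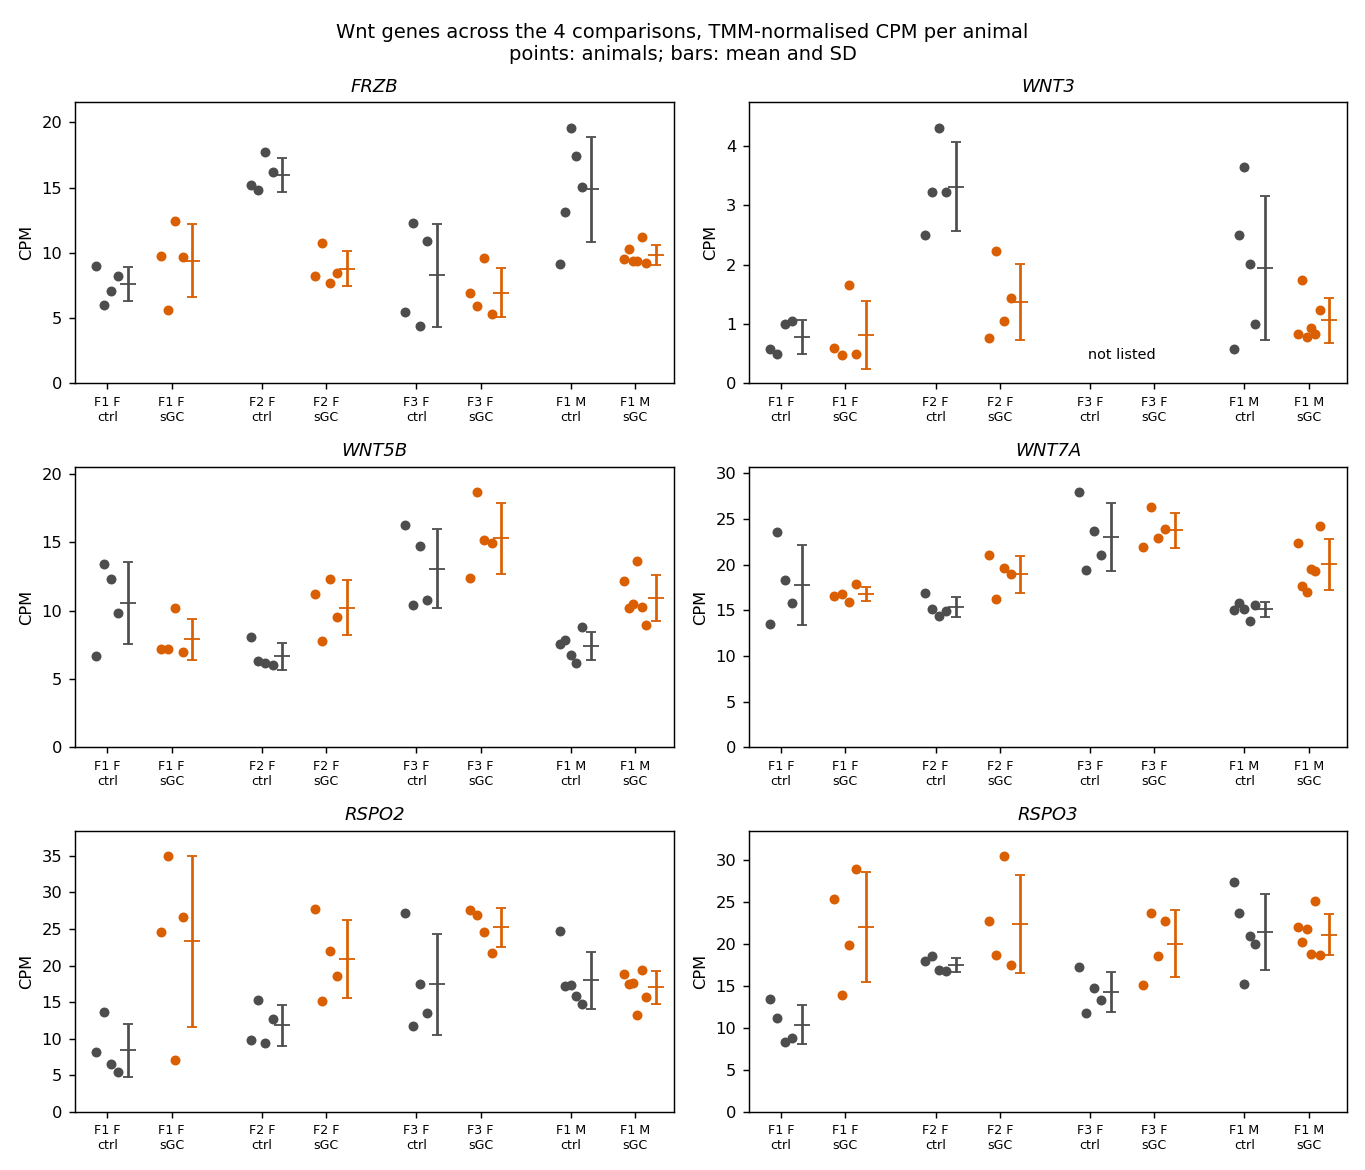
TMM-normalised CPM of 6 Wnt genes in each group, 1 point per animal with mean and SD (n = 4 per female group, 5 control and 6 sGC males). Each comparison was counted as its own table, so levels are read within a comparison. FRZB was lower in all F2 sGC animals than in all F2 controls, WNT5B and WNT7A were higher in all sGC males than in all male controls, and WNT3 is not listed for F3 females.

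FRZB was the only Wnt gene called in more than 1 comparison, and the share of all genes so called was not counted. Of the 46 genes tested in all 4 comparisons, 11 had the same sign throughout, 6 higher (WNT2, WNT6, WNT10B, WNT16, LGR6 and PORCN) and 5 lower (FZD1, LRP6, SFRP4, SFRP5 and DKK3). That is 23.9%, beside 18.7% of all genes tested in all 4, a share near the background. RSPO2 and RSPO3 had unadjusted p under 0.05 in all 3 female generations. Of all genes, 34.2%, 16.1% and 17.3% had such p values in F1, F2 and F3 females, and the share in all 3 was not counted. RSPO2 was called in no comparison and RSPO3 only in F1 females. The log2 fold changes were 1.47, 0.83 and 0.53 for RSPO2 and 1.08, 0.35 and 0.48 for RSPO3. Both were near 0 in F1 males (-0.07 ± 0.13 and -0.02 ± 0.13). FZD2 also had such p values in all 3 female generations, at -0.51, 0.51 and -0.54. WNT16 was at 0.91 in F1 and 1.13 in F3 females. WNT5A, a ligand of the branch that does not use beta-catenin, was at -0.49 in both F2 and F3 females, where neither was called (edgeR FDR 0.215 and 0.206).

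Whether the sGC difference itself differed between groups was tested as an interaction, the difference in the second group minus that in the first. Between F1 females and F1 males, 18 of 49 Wnt genes (36.7%) had an interaction FDR below 0.05, beside 31.7% of all genes, and in 15 of the 18 the log2 fold changes had opposite signs. Between F1 females and F2 females it was 7 of 48 (14.6%), beside 13.8%, and all 7 had opposite signs. The share of opposite signs among all genes with an interaction was not counted, and an opposite sign alone is not a reversal. In F2 females, LRP5 (0.03 ± 0.08), RYK (0.08 ± 0.10) and AXIN1 (0.01 ± 0.08) lay within their SE of 0, while WNT5B, WNT7B, FRZB and WLS did not. Both comparisons use the same F1 females. The shares of Wnt genes were close to those over all genes. Mature oligodendrocyte markers also differed in sign between these groups. Their median log2 fold changes were -0.72 in F1 females, 0.95 in F1 males and 1.06 in F2 females. Precursor markers had medians of -0.60, 0.42 and 0.33 in the same groups. The part of these cells in the interactions was not tested.

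The lowest FDRs against males belonged to LRP5, AXIN1, RYK and WLS. LRP5 was at -0.58 in F1 females, 0.22 in F1 males and 0.03 in F2 females, with interactions of 0.79 ± 0.12 against males (edgeR FDR 0.000197) and 0.60 ± 0.11 against F2 females (edgeR FDR 0.00558). WLS was at 0.48, -0.09 and -0.10 in the same groups, with interactions of -0.57 ± 0.13 (edgeR FDR 0.00279) and -0.58 ± 0.14 (edgeR FDR 0.0151). RYK and AXIN1, like LRP5, were called lower in F1 females, with interactions of 0.59 and 0.41 against males and 0.58 and 0.32 against F2 females. FRZB ran opposite, at 0.31 ± 0.23 in F1 females (not called), -0.60 in F1 males and -0.86 in F2 females, with interactions of -0.91 ± 0.28 (edgeR FDR 0.0197) and -1.17 ± 0.27 (edgeR FDR 0.0128). WNT5B was at -0.42 ± 0.22 in F1 females (not called), 0.56 in F1 males and 0.62 in F2 females, with interactions of 0.96 ± 0.24 (edgeR FDR 0.00575) and 1.03 ± 0.29 (edgeR FDR 0.0291). Of the 18 interactions with males, 11 held in all 19 fits that left out 1 animal, and of the 7 with F2 females, LRP5, FRZB and WLS held in all 16. Without both controls of high striatal marker level the counts were 16 and 7, not made up of the same genes. Against males FZD6, RSPO2, SFRP2 and KREMEN1 were no longer called (edgeR FDR 0.0541 to 0.0871) and WNT6 and RSPO1 were. Against F2 females AXIN1 and WNT7B were no longer called (edgeR FDR 0.104 and 0.0561) and WNT6 and WNT7A were.

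Between F1 and F3 females, edgeR gave 0 of 48 interactions, beside 0.0981% of all genes, with 3 at an unadjusted p under 0.05 (15.8% of all genes), and between F2 and F3 females 0 of 47, beside 0.018%, with 5 at an unadjusted p under 0.05 (11.5% of all genes). The likelihood ratio test and DESeq2 called 0 in both pairs.

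**Figure D5:**
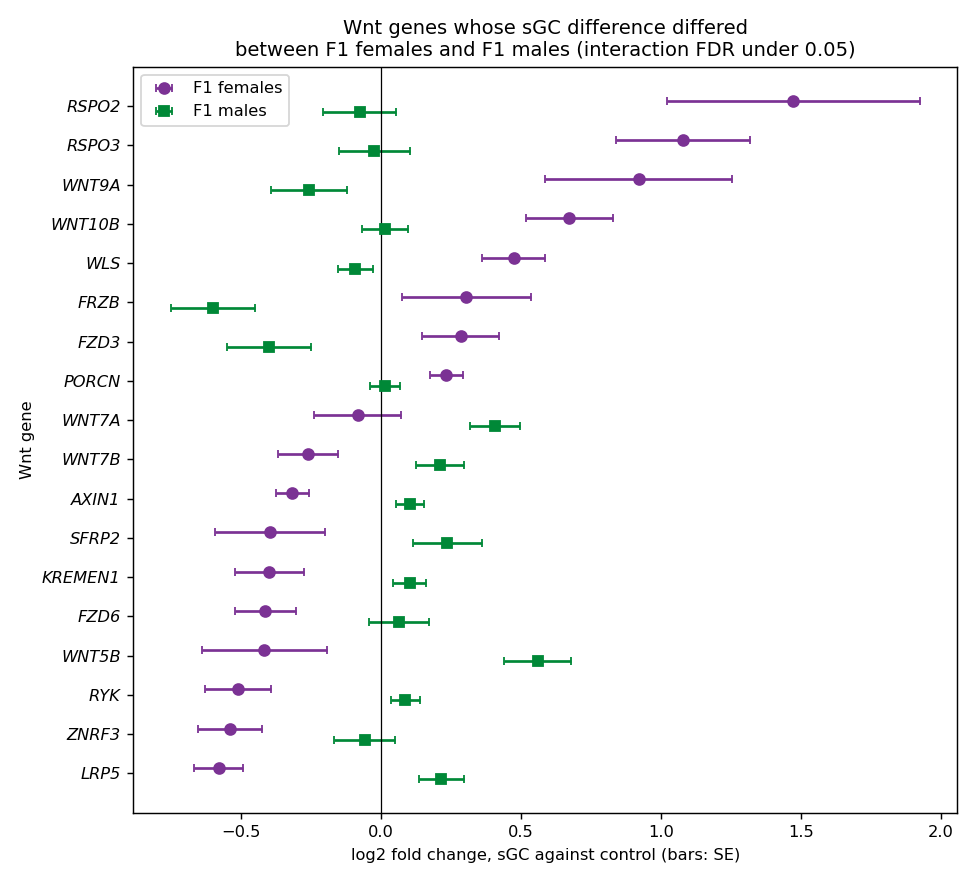
Log2 fold change of sGC against control with its SE (bars) in F1 females (circles) and F1 males (squares), for the 18 Wnt genes with an interaction FDR under 0.05, ordered by the value in F1 females. RSPO2 is at 1.47 in females and -0.07 in males, and LRP5 at -0.58 and 0.22.

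The rest of the pathway was examined through 4 further lists. In F1 females, 8 of 38 intracellular beta-catenin genes were called, 5 higher and 3 lower (21.1%, beside 16.5% of all genes). The transcription factor TCF7L2 fell from 11.9 to 7.07 CPM (group means, log2 fold change -0.75 ± 0.11, edgeR FDR 0.00625), and CXXC5, an inhibitor that binds Dishevelled, rose from 151 to 206 CPM (0.45 ± 0.08, edgeR FDR 0.0113). GSK3B and APC, members of the destruction complex together with the AXIN1 that fell, both rose, at log2 fold changes of 0.35 ± 0.08 and 0.44 ± 0.10 (edgeR FDR 0.0212 and 0.0218). Of 14 planar polarity genes 4 rose and 0 fell (28.6%), among them PRICKLE1 (0.34 ± 0.07) and PRICKLE2 (0.36 ± 0.07). Of 12 Wnt target genes 2 were called (16.7%), where ID2 rose (0.60 ± 0.17) and CCND1, the cyclin that drives entry into the cell cycle, fell (-0.51 ± 0.13). Of 15 other extracellular genes 2 were called (13.3%), as GPC3 and CTHRC1 fell (-0.81 ± 0.22 and -0.90 ± 0.26). Over the 4 lists 16 of 79 entries were called (20.3%), a share near that of all genes.

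In F1 males, 3 of 40 intracellular genes were called (7.5%, beside 9.22% of all genes), and over the 4 lists it was 8 of 83 (9.64%), with NKD1 counted in both of its lists. The feedback inhibitor NKD1, also on the target list, rose from 70.2 to 108 CPM (0.62 ± 0.07, edgeR FDR 0.00259), and AMER1 and BTRC fell (-0.20 ± 0.04 and -0.16 ± 0.04). Of 14 planar polarity genes, DAAM2 (0.72 ± 0.15) and SCRIB (0.23 ± 0.04) rose and PRICKLE2 (-0.22 ± 0.05) and DAAM1 (-0.20 ± 0.05) fell. NKD1 had the opposite sign in F1 females, -0.50 ± 0.23, and was not called there (edgeR FDR 0.156). Mature oligodendrocyte markers differed in sign too, with median log2 fold changes of 0.95 in F1 males and -0.72 in F1 females. The part of any cell type in the differences of the pathway lists was not tested. In F2 and F3 females 0 genes of the 4 lists were called by edgeR's quasi-likelihood test, while 10 of 79 in F2 (12.7%, beside 16.1% of all genes) and 8 of 80 in F3 (10%, beside 17.3%) had an unadjusted p under 0.05. By DESeq2 3 were called in F2 and 2 in F3, and the counts by the likelihood ratio test were equal. Shares of all genes by these other tests are not given here.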

How the data were processed

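The authors aligned single-end mRNA reads from a kit that does not mark strand, and the submitters' processing notes name TopHat2 and edgeR. The counting program, genome build and any filter on the listed genes are not given in the sources used here. The deposited tables, 1 per comparison, hold raw counts of reads per gene symbol, with 12819964 to 31763585 assigned reads per library. Reads of overlapping antisense genes cannot be told apart, and depth limits genes with few reads.

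Symbols were matched ignoring case. Genes passed edgeR's filterByExpr (minimum count 10, minimum total 15). TMM factors and the quasi-likelihood test were fitted on each whole table (edgeR 4.0.16, limma 3.58.1, R 4.3.3; tables in Python 3.11.15, pandas 2.3.3), with Benjamini-Hochberg adjustment over all its genes and FDR under 0.05 as the threshold. Interactions used joint fits of both tables over shared genes, in which counting differences between tables cancel only if they act on both groups of a table alike. The code was tested on simulated data. Levels were not compared between genes or tables. The alternatives were the likelihood ratio test, DESeq2 1.42.0, other scalings and filters, a replicate block, 1 fit of all groups and fits leaving out animals. The fit without both F1 female controls of high striatal marker level was chosen after seeing the data.

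The Wnt genes and lists were chosen with earlier results of these data known. Named were genes with FDR under 0.05 in a comparison or an interaction, or unadjusted p under 0.05 in at least 2 comparisons, and up to 4 per pathway list. FZD9, LRP6, AXIN2, LGR4, LGR6, ROR1, ROR2, WNT2, WNT6, RSPO1, DKK2 and, from the pathway lists, GSK3B, APC, BTRC and DAAM1 were named after their values were seen. Labels give no day or litter shared by animals, and each library is 1 animal.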

Additional observations from a re-analysis of the deposited data

Results flagged for a closer look

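Sets of 4 to 6 animals were examined for each named gene in the comparisons where its unadjusted p was under 0.05. Of these 92 sets (a gene in 1 group), 5 held an animal set apart from the rest by Dixon's criterion. Chance gives about 1 in 20 for sets not chosen by their p values, but these sets were so chosen. In F1 females, PORCN in sGC animal 2 was 51 CPM against 55.8 to 56.1 CPM in the others. In F2 females, WNT5A in sGC animal 2 was 16.7 CPM against 10.9 to 11.9 CPM, and WNT5B in control 1 was 8.12 CPM against 6.02 to 6.31 CPM. In F3 females, WNT10B in sGC animal 4 was 7.61 CPM against 9.92 to 10.4 CPM, and WNT16 in control 3 was 1.02 CPM against 0.508 to 0.576 CPM.

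The sGC difference of 18 genes differed between F1 females and F1 males by the edgeR interaction test (male minus female, log2). It was more positive in males for WNT5B (0.96), LRP5 (0.79), SFRP2 (0.63), RYK (0.59), KREMEN1 (0.50), WNT7A (0.48), ZNRF3 (0.47), FZD6 (0.47), WNT7B (0.46) and AXIN1 (0.41). It was more negative in males for RSPO2 (-1.56), WNT9A (-1.19), RSPO3 (-1.11), FRZB (-0.91), FZD3 (-0.69), WNT10B (-0.66), WLS (-0.57) and PORCN (-0.22). In WNT10B, ZNRF3 and PORCN both sexes had the same sign. Between F1 and F2 females (F2 minus F1) 7 genes differed, with WNT5B at 1.03, LRP5 at 0.60, RYK at 0.58, WNT7B at 0.58, AXIN1 at 0.32, FRZB at -1.17 and WLS at -0.58. Sex and sequencing series cannot be told apart in the first set, and both sets use the same F1 females.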

How the results depend on the processing

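No log2 fold change of a named gene and no interaction turned sign past the threshold under any alternative. Of 820 refitted log2 fold changes of named genes 706 stayed on their side of the threshold, 76 lost a call and 38 gained one, and of 679 refitted interactions 114 lost a call. In F1 females, 11 genes were called, 2 when unadjusted p under 0.001 was also asked, 7 with the replicate block, 7 without both controls of high striatal marker level, and 2 to 10 with 1 animal left out. In F2 females, 1 gene was called, 6 by the likelihood ratio test, 5 by DESeq2, 0 in the single fit of all groups (FRZB, FDR 0.083) and 0 to 5 with 1 animal left out. In F3 females, 0 were called, 4 by the likelihood ratio test, 3 by DESeq2 and 0 to 4 with 1 animal left out. In F1 males, 3 were called and 2 to 4 with 1 animal left out. Shares of all genes called are not given for these refits, so the counts cannot be read as particular to Wnt genes. Interactions of F1 females with F1 males numbered 18, 7 with unadjusted p under 0.001 and 13 to 19 with 1 animal left out, and those with F2 females numbered 7, 3 and 3 to 8. The lowest of these, 3, was without F2 control 3, and 4 were left without F1 control 3, F1 sGC animal 1 or F2 sGC animal 4. The cause was not tested. Same-numbered animals of the 2 groups correlated at -0.33 to 0.34, so the numbers do not pair them; with the replicate block FRZB in F1 males had FDR 0.0665, and interactions numbered 15 and 5.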
